A study of Mus musculus with 13 samples.

Results

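The genes described here encode the enzymes that carry glucose to carbon dioxide: the glucose transporters and enzymes of glycolysis with lactate dehydrogenase, the pyruvate dehydrogenase complex with a kinase that acts on it, and the citric acid cycle. They were taken as a list of 38 genes by name, and no measured value entered the rule. Earlier results of these data were known when the list was chosen. A probe set, the group of probes that reads a transcript on the array, was assigned to a gene where the probe annotation gave it a single symbol. Of the 38 genes, 36 were measured, out of 18161 genes measured in all: 18 of 20 of glycolysis, 5 of 5 of the pyruvate dehydrogenase group and 13 of 13 of the citric acid cycle. Gpi1, the isomerase that makes fructose 6-phosphate, and Eno1, the widely expressed enolase, had no probe set with a single symbol and were not analysed here. Gapdh was read only by array control probe sets, so 35 genes entered the fit across all probe sets.

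Total RNA of 1 brain hemisphere per animal, from 13 male C3HeB/FeJ mice, an inbred strain, was hybridised to Affymetrix expression arrays. The creatine-fed group held 6 mice, given pellets with 1% creatine for 6 months. The untreated group held 7 mice, given pellets of the same caloric content with no creatine added. Both groups were 10 to 12 weeks old when the feeding began, no allele or other agent is named for either, and the labels call the arrays biological replicates. The samples therefore cover 1 strain, 1 sex and 1 length of feeding.

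Glycolysis splits glucose into pyruvate in the cytosol, and lactate dehydrogenase converts pyruvate and lactate into each other. The pyruvate dehydrogenase complex of the mitochondrion turns pyruvate into acetyl-CoA, and the citric acid cycle oxidises it and passes electrons to the respiratory chain. In brain, which lives largely on glucose, several steps have isoforms that differ between cell types: aldolase C is known from astrocytes and Purkinje cells, and enolase 2 from neurons. Creatine, which the treated mice ate, is the substrate of creatine kinases, which buffer ATP.

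The hemispheres carried the markers of brain. Summed intensities of 10 neuronal markers ran from 28543 to 32687. Some other lists held dim markers. Of the markers measured, 3 of 4 of red blood cells, 4 of 7 of choroid plexus and 3 of 7 of olfactory bulb were dimmer than the median of every array. Array medians ran from 37 to 45, and all arrays had the same trimmed mean. The 10 cerebellar markers differed widely between mice, from 2654 in untreated replicate 3 and 6472 in creatine-fed replicate 4 to between 9051 and 20002 in the other 11 mice. The summed brainstem markers, 11 of 12 measured, ran from 233 to 408 in creatine-fed mice and from 374 to 707 in untreated mice. Of the 11, 10 had lower means in creatine-fed mice, and 7 were dimmer than the median of every array. Their mean on the log2 scale, used below as a covariate, ran from 5.01 to 5.53 in creatine-fed and from 5.23 to 6.20 in untreated mice. Values given with this covariate therefore cannot part the feeding from these markers. In such bulk tissue, fewer cells of a type and less RNA per cell cannot be told apart.

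Comparing the creatine-fed with the untreated group asks which of these transcripts differ after the feeding. None of the 35 fitted genes passed, and the differences were small. Each gene was taken at its brightest probe set, differences were fitted with limma on log2 intensity after adding 16, and p-values were adjusted by the Benjamini-Hochberg method over all 45037 probe sets. A gene counted as called at an adjusted p under 0.05. The count of 0 members stands beside a background of 0.00888% of all probe sets called, and the smallest adjusted p of a member was 0.288, for Aldoc. Among the 22519 probe sets brighter than the median, where 0.608% were called, again 0 members passed. The exact rank-sum test also called 0, but it could not decide. With 6 against 7 mice, even groups that do not overlap, seen in 0.56% of probe sets, could not pass its adjustment.

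In size, 29 of the 35 differences were under 0.1 on the log2 scale, and the median size was 0.04. For 28 of the 35 genes the 95% interval lay wholly within 0.25 on either side of 0, against 30.0% of all genes at their brightest probe set. Bright probe sets varied less within a group: the median standard deviation on the log2 scale was 0.115 for the 10065 probe sets with a mean intensity of 200 or more and 0.223 for all, and it was 0.0832 for the members. By group of genes, the median log2 difference (creatine-fed minus untreated) was -0.03 in glycolysis, where 5 genes had higher and 12 lower means, 0.02 in the pyruvate dehydrogenase group, with 4 higher and 1 lower, and -0.03 in the citric acid cycle, with 5 higher and 8 lower. The median over all probe sets was also -0.03, and 57.8% of them had lower means in creatine-fed mice.

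**Figure D1:**
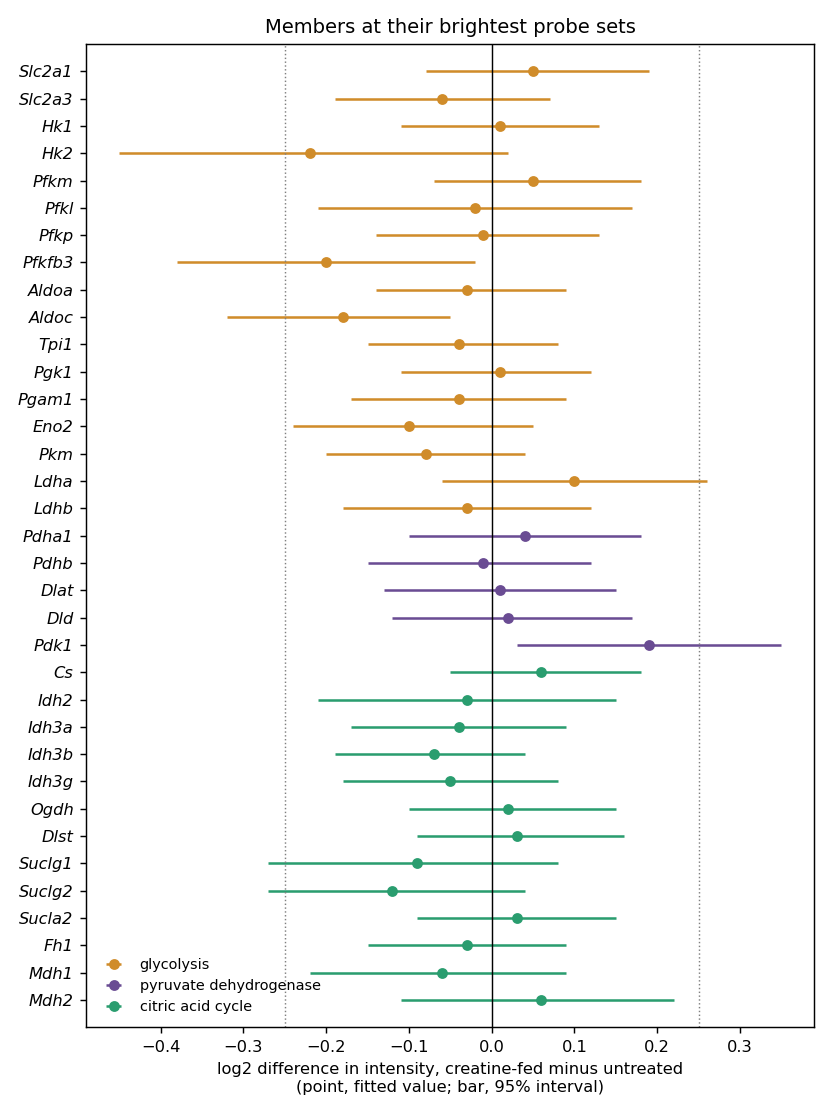
Log2 difference in intensity between creatine-fed and untreated mice for each of the 35 fitted genes, with 95% intervals; the horizontal axis is in log2 units, colours mark the pathway and dotted lines stand at 0.25 on either side of 0. Most points lie within 0.1 of 0; the intervals of Aldoc, Pfkfb3 and Pdk1 leave out 0 before adjustment.

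The direction counted over the members depended on whether the arrays were centred. After each array was centred on its median, 25 of the 35 genes had higher and 10 lower means in creatine-fed mice, in place of 14 and 21, and the median became 0.02 in glycolysis, 0.08 in the pyruvate dehydrogenase group and 0.02 in the citric acid cycle. Quantile normalization left 14 higher and 21 lower. The shift over all probe sets was of the same size, from -0.03 as deposited to 0.02 after centring. For no pathway can a common direction be read from these values.

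**Figure D2:**
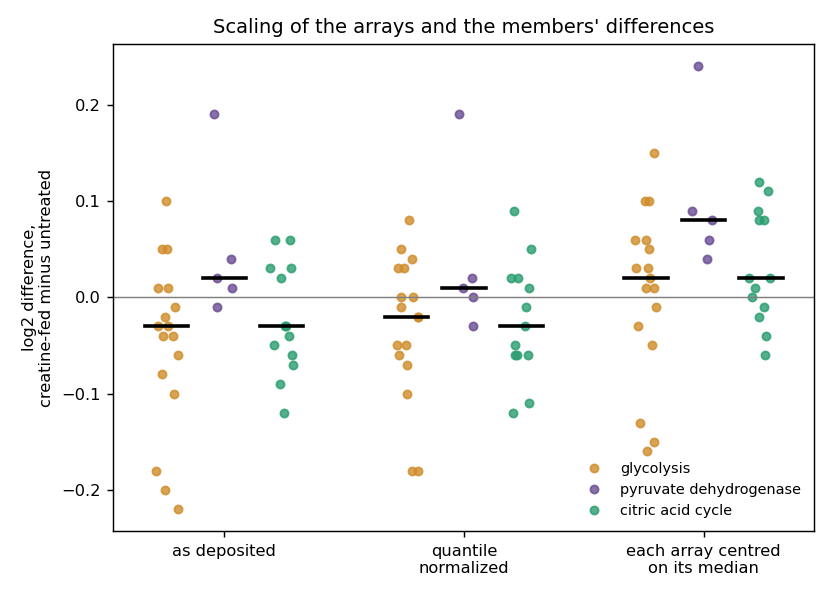
Log2 differences of the 35 fitted genes by pathway, as deposited, with quantile normalization and with arrays centred on their medians; each point is a gene and each bar the median of its pathway. Centring moves the glycolysis median from -0.03 to 0.02 and that of the pyruvate dehydrogenase group from 0.02 to 0.08.

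At an unadjusted p under 0.05, 3 of the 35 genes stood out: Pdk1 with a higher mean, and Aldoc and Pfkfb3 with lower means in creatine-fed mice. Over all probe sets, 4.17% were higher and 7.7% lower at that level, so 1 and 2 genes of 35 are near the background. The groups overlapped at every one of the 87 probe sets of the members, where 0.56% of all probe sets had groups that do not overlap.

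Aldoc encodes aldolase C, an isoform of the enzyme that splits fructose 1,6-bisphosphate. At probe set 1451461_a_at its intensity ran from 5536 through a median of 5888 to 6108 in creatine-fed mice, and from 5916 through 6706 to 7397 in untreated mice. Each of the 6 treated mice was below the mean of the untreated ones, although the lowest untreated mouse fell within their range. The log2 difference was -0.18 ± 0.07 (SE; unadjusted p = 0.013, adjusted p = 0.288, limma). It was -0.10 after quantile normalization (adjusted p = 0.622, limma) and -0.13 after centring. Its other probe set, the dimmer 1424714_at, averaged 279 ± 25.7 in creatine-fed (SD, n = 6) and 271 ± 34 in untreated mice (SD, n = 7), and differed by 0.05. The mean of both probe sets differed by -0.07.

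In the same comparison no marker of any list was called, the smallest adjusted p being 0.126 (limma). Markers of several cell types, astrocytes among them, still lay mostly on 1 side. Of 10 such markers, 9 were lower in creatine-fed mice as deposited and 6 after centring, with a median log2 difference of -0.11 as deposited, and their summed intensity ran from 15247 to 15924 against 15700 to 16844. Fgfr3, a growth factor receptor of astrocytes, and Gjb6, a connexin of astrocytes, were the 2 with an unadjusted p under 0.05, at -0.21 and -0.20. Slc1a2 and Slc1a3, the main glutamate transporters of astrocytes, both stood at -0.01. Of 9 oligodendrocyte markers measured, 8 were lower as deposited and 7 after centring, with a median of -0.12. Their summed intensity ran from 17483 to 19641 against 19069 to 23768, and 4 were lower at an unadjusted p under 0.05 (limma). Of the 11 brainstem markers, 4 were lower at that level, with a median of -0.43. Over all probe sets, 7.7% were lower and 4.17% higher at that level. All 7 olfactory bulb markers were lower, with a median of -0.23. All 10 microglial markers were higher, with a median of 0.08 (9 of 10 after quantile normalization). Of 10 cortex and striatum markers measured, 9 were higher, with a median of 0.11. Rorb and Drd1 were the 2 of these with an unadjusted p under 0.05 (limma), at 0.24 and 0.26. Cerebellar markers were higher for 9 of 10, with a median of 0.10 and wide intervals. The part of these cell types and regions in the Aldoc difference, and in those of the other members, was not tested. With the mean of the brainstem markers as a covariate the Aldoc difference was -0.07 (adjusted p = 0.794, limma), and without the 2 mice lowest in cerebellar markers it was -0.20.

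Pfkfb3 encodes a 6-phosphofructo-2-kinase, which makes fructose 2,6-bisphosphate, an activator of phosphofructokinase. At probe set 1416432_at its intensity was low, from 77 through a median of 88.5 to 99 in creatine-fed mice and from 86 through 108 to 116 in untreated mice. The mean of the untreated mice was above each of the 6 treated mice, with 2 untreated mice inside their range. The log2 difference was -0.20 ± 0.09 (SE; unadjusted p = 0.0351, adjusted p = 0.38, limma). The second probe set, 1456676_a_at, gave -0.07 (unadjusted p = 0.513, limma). With the brainstem markers as a covariate the difference at the brightest probe set was -0.23.

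Pdk1 encodes pyruvate dehydrogenase kinase 1, which phosphorylates the complex and so slows the entry of pyruvate into the cycle. At probe set 1435836_at it read from 290 through a median of 329.5 to 355 in creatine-fed mice and from 240 through 294 to 322 in untreated mice. Each of the 6 treated mice exceeded the mean of the untreated ones, and the groups overlapped. The log2 difference was 0.19 ± 0.08 (SE; unadjusted p = 0.0253, adjusted p = 0.347, limma). Its 4 probe sets disagreed: 1423748_at gave 0.08, while 1423747_a_at gave -0.14 and 1434974_at -0.12, and the mean over all 4 differed by 0.00. With the brainstem markers as a covariate the difference at the brightest probe set was 0.05 (adjusted p = 0.886, limma).

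The other genes among the 8 with the smallest unadjusted p had lower means in creatine-fed mice. Hk2, an inducible hexokinase, was read at low intensity, from 45 through a median of 53 to 74 in creatine-fed mice and from 53 through 59 to 90 in untreated mice. Of the treated mice, 5 of 6 were below the mean of the untreated ones, and replicate 4 was above it. The log2 difference was -0.22 ± 0.11 (SE; unadjusted p = 0.0726, limma). It was -0.33 without the 2 mice lowest in cerebellar markers, -0.14 with the brainstem markers as a covariate and -0.15 without untreated replicate 2.

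Suclg2, the GTP-forming subunit of succinyl-CoA ligase, ran from 222 through 263.5 to 290 in creatine-fed mice and from 275 through 279 to 320 in untreated mice, a log2 difference of -0.12 ± 0.07 (SE). Eno2, the neuronal enolase, ran from 3215 through 3292 to 4005 and from 3522 through 3707 to 3847, a log2 difference of -0.10 ± 0.07 (SE). For both, 2 of the 6 treated mice exceeded the mean of untreated ones, and for Eno2 the highest of all 13 mice was creatine-fed. Idh3b, a subunit of the NAD-dependent isocitrate dehydrogenase, ran from 2222 through 2269 to 2381 and from 2316 through 2370 to 2538. All 6 creatine-fed mice were below its untreated mean, yet the log2 difference was only -0.07 ± 0.05 (SE). Pkm, pyruvate kinase of muscle and brain, ran from 3217 through 3531.5 to 3832 and from 3577 through 3739 to 3775, a log2 difference of -0.08 ± 0.06 (SE). Its untreated mice lay close together, while the creatine-fed mice spread to both sides of them. The unadjusted p of these 4 genes ran from 0.124 to 0.187 (limma).

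**Figure D3:**
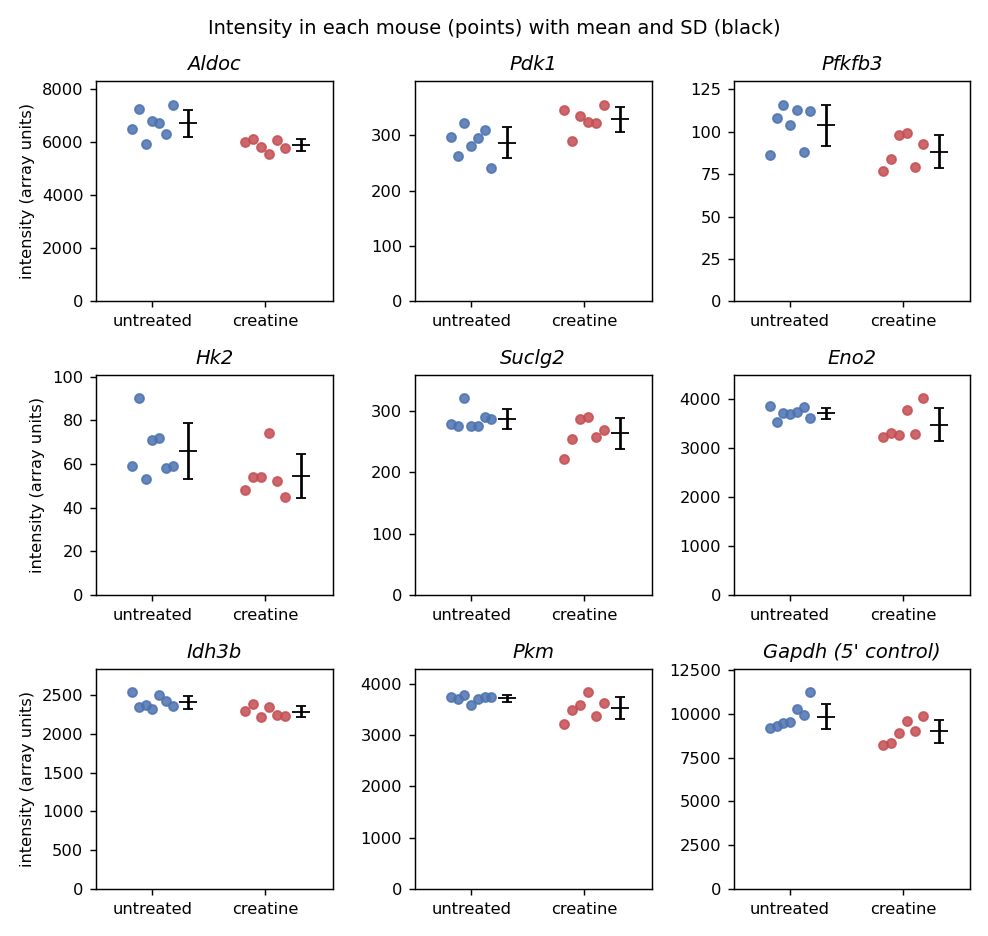
Intensity in array units for each mouse at the brightest probe set of the 8 genes with the smallest unadjusted p, and at the 5′ control probe set of Gapdh; points are mice, black marks the mean and standard deviation (6 creatine-fed, 7 untreated), and every axis starts at 0. The groups overlap in every panel; Aldoc spans 5536 to 6108 in creatine-fed and 5916 to 7397 in untreated mice.

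Gapdh, which oxidises glyceraldehyde 3-phosphate, is read by 3 control probe sets along its transcript, and these were tested by the exact 2-sided permutation test over all 1716 splits of 6 against 7 mice. At the 5′ end, the brightest, intensities ran from 8242 through a median of 8981.5 to 9859 in creatine-fed mice and from 9207 through 9524 to 11243 in untreated mice. Of the treated mice, 5 of 6 read less than the untreated mean, and the groups overlapped. The log2 difference was -0.13 (exact permutation p = 0.0449, adjusted over the 3 probe sets 0.0839). It was -0.11 in the middle (exact permutation p = 0.0781) and -0.10 at the 3′ end (exact permutation p = 0.0839). After centring the 5′ difference was -0.08 (exact permutation p = 0.29) and after quantile normalization -0.03 (exact permutation p = 0.408). The p at the 5′ end rose above 0.05 on leaving out any of creatine-fed replicates 1, 2, 3 and 5 or untreated replicates 3, 4, 5, 6 and 7, singly, up to 0.105 without creatine-fed replicate 1.

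The remaining genes of glycolysis had adjusted p-values of 0.628 or more (limma), and their values are given in the order of the pathway. Of the transporters, Slc2a1, found in the blood-brain barrier and glia, differed by 0.05 on the log2 scale (95% interval -0.08 to 0.19). Slc2a3, the neuronal transporter, differed by -0.06 (-0.19 to 0.07). Hk1, the main hexokinase of brain, differed by 0.01 (-0.11 to 0.13). Among the subunits of phosphofructokinase, which commits sugar to glycolysis, Pfkm differed by 0.05, Pfkl by -0.02 and Pfkp by -0.01. The interval of Pfkl was the widest of the 3, from -0.21 to 0.17. With the brainstem markers as a covariate Pfkl differed by -0.20 and Pfkp by -0.09 (adjusted p = 0.445 and 0.744, limma).

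Aldoa, the widely expressed aldolase, differed by -0.03 on the log2 scale as deposited and by 0.04 after quantile normalization. Its probe set 1447734_x_at gave -0.27 ± 0.09 (SE; unadjusted p = 0.0115, limma), opposite in sign to 3 of its 5 probe sets. Tpi1, which interconverts the triose phosphates, differed by -0.04 and Pgam1, the mutase before enolase, by -0.04. Pgk1, the first enzyme of glycolysis to make ATP, differed by 0.01, with 1438640_x_at at -0.21 ± 0.07 (SE; unadjusted p = 0.00768, limma). The suffix of both of those probe sets marks probes that may match other transcripts, as do those of the brightest probe sets of Aldoa, Ldhb, Slc2a3, Idh3b and Suclg2. Ldha, the lactate dehydrogenase subunit of fast muscle, differed by 0.10 (-0.06 to 0.26), with all 6 creatine-fed mice above the untreated mean, and by -0.03 with the brainstem markers as a covariate. Ldhb, the heart subunit, differed by -0.03 (-0.18 to 0.12).

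In the pyruvate dehydrogenase group, the catalytic subunits and the shared enzyme lay close to 0. Pdha1, the regulated subunit that the kinases phosphorylate, differed by 0.04 on the log2 scale (-0.10 to 0.18), and Pdhb, its partner, by -0.01 (-0.15 to 0.12). Dlat, the acetyltransferase core, differed by 0.01 (-0.13 to 0.15). Dld, the dehydrogenase that this complex shares with the oxoglutarate dehydrogenase complex, differed by 0.02 (-0.12 to 0.17). A second Dld probe set, 1433263_at, gave 0.47 (unadjusted p = 0.00658, limma), but at intensities of 2 to 20 in creatine-fed and 1 to 3 in untreated mice, below the median of every array. Pdha1 and Dlat turned to -0.04 and -0.08 with the brainstem markers as a covariate.

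In the citric acid cycle, Cs, the synthase that opens it, differed by 0.06 on the log2 scale (-0.05 to 0.18), with 5 of 6 creatine-fed mice above the untreated mean. Among the isocitrate dehydrogenases, the NADP-dependent Idh2 differed by -0.03, and the other subunits of the NAD-dependent enzyme, Idh3a and Idh3g, by -0.04 and -0.05. A dimmer Idh3a probe set, 1422500_at, gave 0.14 ± 0.06 (SE; unadjusted p = 0.0399, limma), the opposite sign. Of the oxoglutarate dehydrogenase complex, Ogdh, its first enzyme, differed by 0.02 and Dlst, its core, by 0.03. Further probe sets of Dlst went the other way, 1437775_at with -0.31 ± 0.09 (SE; unadjusted p = 0.00557, limma) and the dim 1430161_at with -0.37 ± 0.17 (SE; unadjusted p = 0.0484, limma).

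Of the other subunits of succinyl-CoA ligase, Suclg1, which both forms share, differed by -0.09 (-0.27 to 0.08) and Sucla2, of the ATP-forming enzyme, by 0.03 (-0.09 to 0.15). Fh1, fumarase, differed by -0.03. With the brainstem markers as a covariate Suclg1 differed by -0.19 and Suclg2 by -0.22. The malate dehydrogenases lay on either side of 0, Mdh1 of the cytosol at -0.06 (-0.22 to 0.09) and Mdh2 of the mitochondrion at 0.06 (-0.11 to 0.22), the latter at 0.17 with that covariate. None of the members of the cycle had an unadjusted p under 0.05, and the smallest adjusted p among them was 0.556 (limma).

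Probe sets of 1 gene often disagreed. Of the 27 members read by several probe sets, 15 had all of them on 1 side of 0, and 31 of the 52 further probe sets shared the sign of the brightest. Over all 87 probe sets, 3 were higher and 6 lower at an unadjusted p under 0.05, near the background of 4.17% higher and 7.7% lower.

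**Figure D4:**
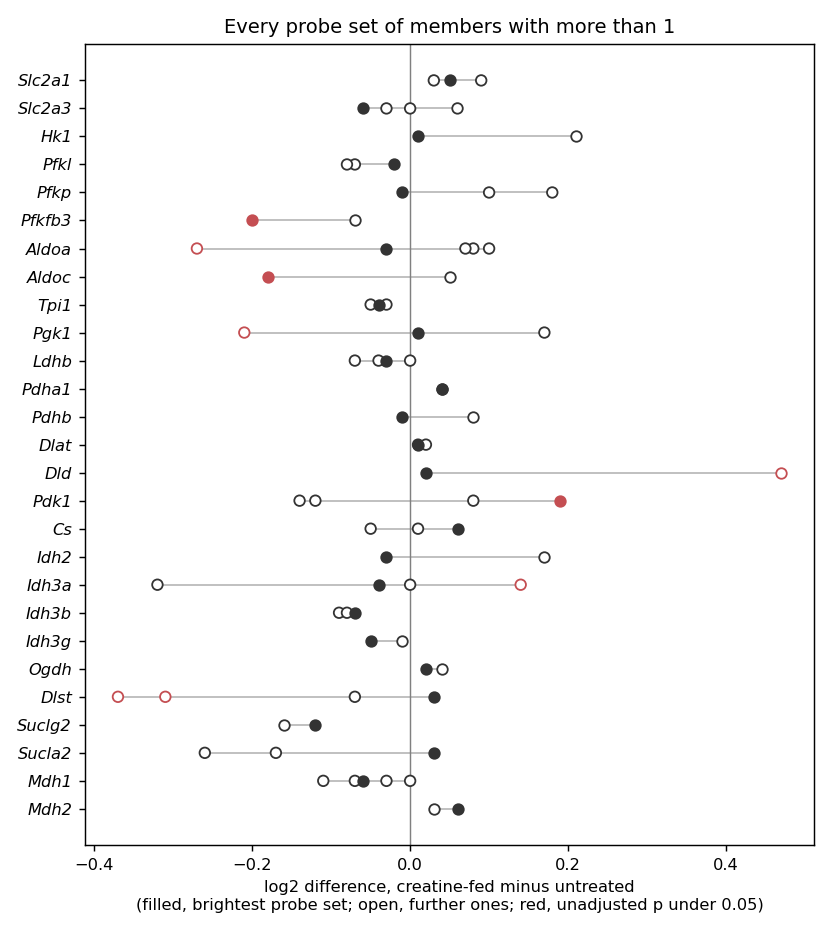
Log2 difference between creatine-fed and untreated mice at every probe set of the 27 members with more than 1; filled points are the brightest probe sets, open points the further ones, and red marks an unadjusted p under 0.05. Pdk1, Dlst and Aldoa have probe sets on both sides of 0; the Dld point at 0.47 is a probe set near the floor of the arrays.

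Within each array, 9 pairs of genes were compared as log2 ratios of intensities after adding 16, with no test. Such a ratio depends little on the scaling of an array where both genes are bright. The added 16 lets it move where a gene is dim, as Hk2 is. The pairs are isoforms or subunits of 1 step, except for the kinase Pdk1 and its target Pdha1. The Aldoa/Aldoc log2 ratio ran from -0.10 to 0.17 in creatine-fed and from -0.27 to 0.02 in untreated mice, so the mean was 0.16 higher in creatine-fed mice, all 6 of which lay above the untreated mean. The same held for Slc2a1/Slc2a3, 0.11 higher, and Pfkm/Pfkp, 0.06 higher. Hk1/Hk2 was 0.23 higher, Ldha/Ldhb 0.13 higher and Pdk1/Pdha1 0.15 higher, each with 5 of 6 creatine-fed mice above the untreated mean. Suclg2/Sucla2 was lower by a log2 difference of -0.15, Mdh1/Mdh2 by -0.12 and Pfkl/Pfkp by -0.02. The groups overlapped in every one of the 9 pairs.

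Mice of 1 group also differed among themselves. Relative to the untreated mean of each gene, the mean over the 17 fitted glycolysis genes ran from -0.11 in creatine-fed replicate 1 to 0.06 in creatine-fed replicate 4 on the log2 scale, and from -0.02 to 0.02 in untreated mice, whose group mean is 0 by construction. Creatine-fed replicate 1 had 2 of 17 genes above the untreated mean, and replicate 4 had 12. Replicate 4 is the creatine-fed mouse with the lowest cerebellar sum and with the lowest array median, 37; their part in its values was not tested. For the citric acid cycle, the mean over 13 genes ran from -0.10 in creatine-fed replicate 1 to 0.01 in replicate 3, against -0.04 to 0.03 in untreated mice. Within groups Idh3b varied least, with a standard deviation of 0.0461 on the log2 scale, and Hk2 most, with 0.204.

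**Figure D5:**
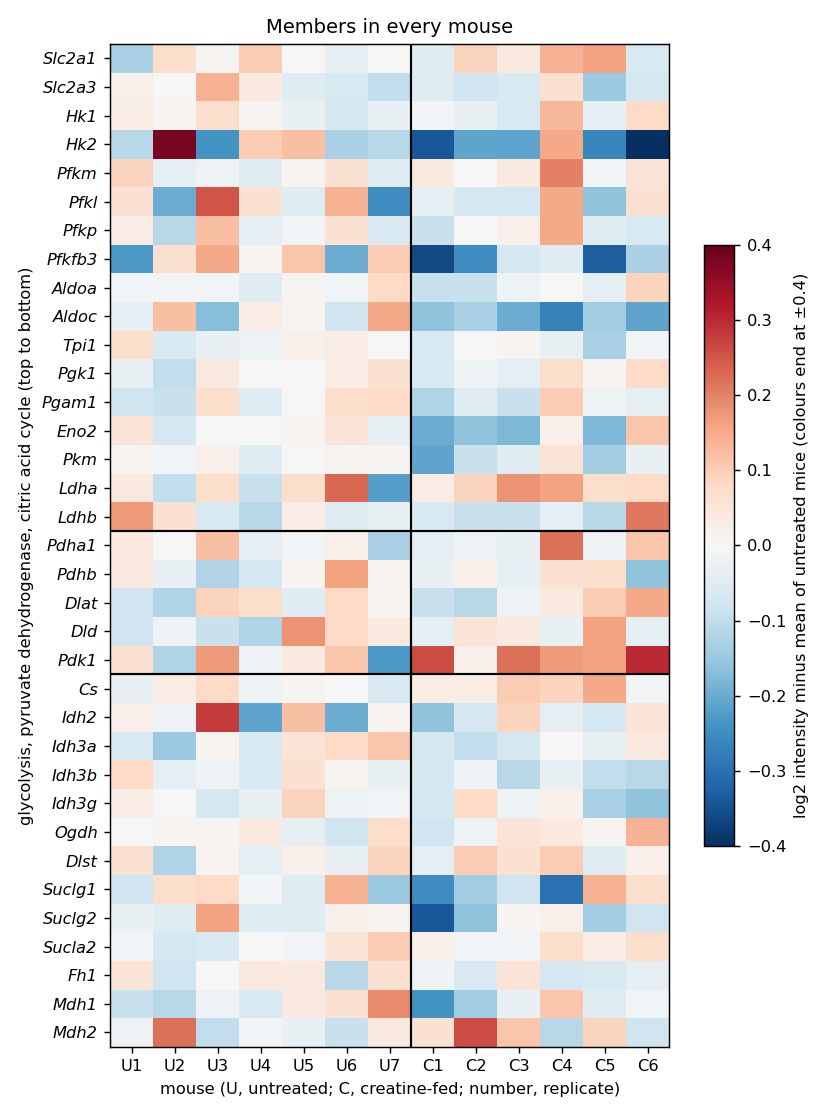
Log2 intensity of each fitted gene in each mouse minus the gene's mean in untreated mice; columns are the 7 untreated (U) and 6 creatine-fed (C) mice by replicate number, rows the genes in pathway order, and lines part the groups and pathways. Aldoc and Pfkfb3 are below the untreated mean in all 6 creatine-fed mice, Pdk1 above it, and most other rows mix both colours.

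Other genes of these pathways were read from a list of 83, of which 76 were measured at the brightest probe set. Of these, 25 had higher and 51 lower means in creatine-fed mice, with a median log2 difference of -0.04. After centring, 41 were higher and 35 lower. By limma 0 were called, and 0 by the rank-sum test, which no probe set could pass here. At an unadjusted p under 0.05, 6 were lower and 1 higher, near or under the background of 7.7% lower and 4.17% higher. The 21 further glycolysis genes measured had a median of -0.17, with 17 lower (15 after centring), and 7 of them were dimmer than the median of every array. Pfkfb2, the heart form of the enzyme that Pfkfb3 also encodes, differed by -0.17 ± 0.06 (SE; unadjusted p = 0.0179, limma), with intensities of 239 ± 19 in creatine-fed (SD, n = 6) and 271 ± 13.8 in untreated mice (SD, n = 7). Pfkfb4 differed by -0.23 ± 0.10 (SE; unadjusted p = 0.0307, limma). Ldhd, which handles D-lactate, differed by -0.19, and Pklr, the pyruvate kinase of liver and red cells, by -0.30 at intensities of at most 27.

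Pdhx, the subunit that binds Dld to the pyruvate dehydrogenase complex, ran from 166 through a median of 193.5 to 214 in creatine-fed mice and from 207 through 223 to 267 in untreated mice. The 6 treated mice were all below the mean of untreated mice, with a log2 difference of -0.25 ± 0.08 (SE; unadjusted p = 0.00742, adjusted p = 0.253, limma). Aco1, the cytosolic aconitase, ran from 282 through 296 to 335 and from 329 through 345 to 360, a log2 difference of -0.19 ± 0.06 (SE; unadjusted p = 0.00689, adjusted p = 0.252, limma). Pgls, the lactonase of the pentose phosphate pathway, was the gene with a higher mean, by 0.19 ± 0.09 (SE; unadjusted p = 0.0482, limma). None of these 7 genes passed over all probe sets. The other kinases of the complex were spread around 0, Pdk2 at -0.13, Pdk3 at 0.07 and Pdk4 at -0.05. Subunits of succinate dehydrogenase, which ties the cycle to the respiratory chain, lay between -0.06 and 0.02.

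Many glycolytic genes are known targets of the hypoxia-inducible factors, whose response element can hold the letters ACGTG. These letters, read on both strands (ACGTG or CACGT), were looked for in RefSeq promoter windows of 300 bases, 250 before the start of a transcript and 50 after it, in the build GRCm38.p6. Windows were listed for 36 of the 38 genes. At least 1 window held the letters for 12 of 19 glycolysis genes, 1 of 5 genes of the pyruvate dehydrogenase group and 3 of 12 of the citric acid cycle, against 21.8% of 27025 genes with windows. Genes can have several windows; by window, 48.4% of the 31 of glycolysis genes, 16.7% of the 6 of the pyruvate dehydrogenase group and 47.1% of the 17 of citric acid cycle genes held the letters, and 19.6% of all 32851. Ogdh alone has 6 of those 17. These shares describe the reference sequence, not the mice. Other forms of the element were not counted, so a window without these letters may still hold the element.

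The windows of the 3 members with the smallest unadjusted p, and of Ldha with the most matches, show how they differ, with ACGTG or CACGT in capitals. The letters CACGTG hold both overlapping forms and count as 2 matches. Each is written 5′ to 3′ along the gene; where a gene has several windows, that with the most matches is given, the first listed on a tie. Aldoc (chr11:78322823-78323122, plus strand) held 1 match close to the start, Pfkfb3 (chr2:11502041-11502340, minus strand) 2 in 1 overlapping pair, Ldha (chr7:46845554-46845853, plus strand) 5, and Pdk1 (chr2:71872974-71873273, plus strand) 0.
Aldoc: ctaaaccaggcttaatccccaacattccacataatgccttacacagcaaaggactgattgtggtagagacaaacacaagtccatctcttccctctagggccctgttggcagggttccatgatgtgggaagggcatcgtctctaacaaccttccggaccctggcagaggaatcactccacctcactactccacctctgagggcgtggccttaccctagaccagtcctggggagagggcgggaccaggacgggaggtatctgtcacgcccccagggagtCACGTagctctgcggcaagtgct
Pfkfb3: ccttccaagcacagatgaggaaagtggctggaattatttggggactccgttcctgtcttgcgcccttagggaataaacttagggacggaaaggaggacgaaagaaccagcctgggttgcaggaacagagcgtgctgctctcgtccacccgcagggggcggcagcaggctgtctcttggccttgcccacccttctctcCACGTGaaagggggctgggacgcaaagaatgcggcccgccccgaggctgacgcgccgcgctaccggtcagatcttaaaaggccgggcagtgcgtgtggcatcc
Ldha: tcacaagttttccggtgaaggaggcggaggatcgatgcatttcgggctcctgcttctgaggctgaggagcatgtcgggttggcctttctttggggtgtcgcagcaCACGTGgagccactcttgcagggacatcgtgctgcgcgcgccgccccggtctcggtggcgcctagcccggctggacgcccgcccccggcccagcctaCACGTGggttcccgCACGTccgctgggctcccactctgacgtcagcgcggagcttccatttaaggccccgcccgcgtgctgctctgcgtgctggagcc
Pdk1: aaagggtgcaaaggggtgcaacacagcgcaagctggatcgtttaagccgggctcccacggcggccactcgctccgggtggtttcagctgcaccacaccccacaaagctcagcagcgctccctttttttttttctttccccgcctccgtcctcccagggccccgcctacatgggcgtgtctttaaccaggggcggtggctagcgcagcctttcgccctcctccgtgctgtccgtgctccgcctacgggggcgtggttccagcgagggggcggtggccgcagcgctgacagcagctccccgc

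Expression differences were set beside these letters, with no test. The 15 fitted members with a match had a median log2 difference of -0.03, from -0.22 to 0.10, with 6 higher and 9 lower. The 18 without a match had a median of -0.02, from -0.12 to 0.19, with 8 higher and 10 lower. Of the members with 2 matches, Pfkfb3 (-0.20), Hk2 (-0.22) and Pkm (-0.08) lay lower, and Hk1 (0.01), Pgk1 (0.01) and Ogdh (0.02) lay higher. Pfkm, with 3, differed by 0.05 and Ldha, with 5, by 0.10. None of them passed the threshold.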

How the data were processed

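Arrays of 13 hemispheres, 6 creatine-fed and 7 untreated, were grouped by their titles. The authors deposited 1 intensity per probe set and array, linear whole numbers for 45101 probe sets with the same 2% trimmed mean, 150.05, on every array. RMA is the only method named, per the submitters' processing notes. RMA returns log2 values, so the linear numbers contradict it, and log2 was taken here. Which tool scaled the arrays, and to what value, is not given in the sources used here.

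The 64 array control probe sets were set aside and 45037 were fitted with limma 3.58.1 (lmFit and eBayes, 2-sided, no covariate) in R 4.3.3 on log2(intensity + 16), with Benjamini-Hochberg adjustment and a threshold of 0.05. Folds of dim probe sets are understated by the offset. A gene stands at its brightest probe set. Gapdh, present only among the controls, was tested by exact permutation. Symbols came from the probe table, 34945 probe sets having 1 symbol, 932 several and 9160 none listed.

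The members and lists were chosen with earlier results of these data known. All members are named; values per mouse are given for the 8 with the smallest unadjusted p, and other pathway genes and further probe sets are named at an unadjusted p under 0.05 or where they oppose a brightest probe set that has one; other genes of the lists and Gapdh were added for context. Alternatives were other scalings, offsets, filters, probe set rules, variance models, covariates, the replicate block, a rank-sum test and leaving out each mouse; leaving out the 2 mice lowest in cerebellar markers was added after seeing the data.

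On simulated data of 45037 probe sets for this comparison, 43% of 100 planted log2 changes of 0.5 and 92% of 100 changes of 1 were recovered. Of 146 calls, 7.53% were false. The changes were planted in probe sets of any brightness. The members varied less (median standard deviation 0.0832 against 0.223 for all) and differed only from -0.22 to 0.19. The rates therefore do not give the recovery for the members. With arrays, their number limits how precise each value is. Plots used matplotlib 3.10.9.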

Additional observations from a re-analysis of the deposited data

Results flagged for a closer look

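In 5 of 72 groups of values, 1 mouse stood far from the others of its group, by its gap to the nearest mouse against the range of the group (Dixon's criterion); chance gives about 1 in 20 groups. Hk2 read 74 in creatine-fed replicate 4, with the other creatine-fed mice between 45 and 54. Pfkm read 2357 in the same mouse, with the others between 2034 and 2128. Pkm read 3577 in untreated replicate 4, with the others between 3694 and 3775. Ldhb read 3754 in creatine-fed replicate 6, with the others between 3013 and 3150. Suclg2 read 320 in untreated replicate 3, with the others between 275 and 290. Creatine-fed replicate 4 and untreated replicate 3 are also the mice lowest in cerebellar markers.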

How the results depend on the processing

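No member passed under any of the 27 alternatives, although by ranks no probe set could pass. Members at an unadjusted p under 0.05, 3 in the reported fit, numbered 1 with quantile normalization, 1 with each array centred on its median and 5 by the exact rank-sum test; leaving out 1 mouse gave 1 to 4, with 1 without creatine-fed replicate 1 or without untreated replicate 7. Centring moved the median log2 differences to 0.02 in glycolysis, 0.08 in the pyruvate dehydrogenase group and 0.02 in the citric acid cycle. The sign was the same under all 27 alternatives for 16 of the 35 members, Aldoc, Pfkfb3 and Hk2 among them. The brighter probe sets, the trend and robust variances and the rank-sum test keep the fitted difference and could not change a sign. Nor could the probe set rules for a gene with 1 probe set, such as Hk2. A change of sign counts as a reversal here where the value moved by more than its standard error. With the mean of all probe sets of a gene, Pfkp reversed to 0.09, Idh2 to 0.07, Dlst to -0.18 and Sucla2 to -0.13; with quantile normalization Aldoa reversed to 0.04; with the brainstem markers as a covariate Ldha reversed to -0.03, Pdha1 to -0.04 and Dlat to -0.08; the cause was not tested. Calls over all probe sets, 4 in the reported fit, numbered 137 among the 22519 brighter probe sets, 161 with trend and robust variances, 36 with an offset of 50, 13 with array weights, 0 to 6 on leaving out 1 mouse, 2 with quantile normalization or gene means, and 0 with an offset of 1, by ranks or without the 2 mice lowest in cerebellar markers.

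Replicate numbers are shared between groups, but the deviations of same-numbered mice correlated at 0.08, 0.15, -0.06, -0.01, -0.01 and 0.02. Of 6 creatine-fed mice, 1 correlated best with its own number. These values show no pairing by number, although they cannot exclude a weak one. With the replicate block 0 probe sets and 0 members were called, and 2 members had an unadjusted p under 0.05. Median differences under the block were -0.03, 0.02 and -0.02 in the 3 pathways.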

Other observations

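The letters GCATGCGC, within the motif of NRF1, a regulator of mitochondrial genes, were found on either strand (GCATGCGC or GCGCATGC) in a promoter window of 2 of 36 members, Pgam1 of glycolysis and Ogdh of the citric acid cycle, against 3.05% of all 27025 genes with windows. Pgam1 differed by -0.04 and Ogdh by 0.02 on the log2 scale between creatine-fed and untreated mice.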
